A study of Drosophila melanogaster with 4 samples.

Results

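Wide KDM4A domains of the euchromatic arms are described here: the enriched regions of the series' combined list on 2L, 3L, 3R and X that span 6000 bp or more. Euchromatic refers to the arm names alone, and whether domains near the centromeric ends lie in heterochromatin was not tested. They were chosen by their width in that list, so their widths are given as a description. There were 485 such domains among the 7827 combined regions of these 4 arms, or 6.2%, and among 11016 regions of the whole combined list. Together they held 4.18 Mb of the 21.5 Mb covered on the 4 arms (19.4%).

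KDM4A is a JmjC-domain demethylase that removes methyl groups from lysines of histone H3, and in Drosophila it is a known partner of heterochromatin protein HP1a. HP1a is known for coating pericentromeric chromatin and chromosome 4, and it also binds at separate places along the gene-rich arms. A wide region is a stretch listed as enriched in one piece, whereas a peak over a single start site is usually short.

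The lists come from ChIP-seq, in which DNA bound by a protein is pulled down with an antibody and sequenced. Nuclei were taken from 3rd instar larvae of the wild-type strain Oregon-R, officially Oregon-R-modENCODE, and the antibody was an affinity-purified rabbit polyclonal against JMJD2A/KDM4A. All groups share strain, stage and genotype: 2 ChIP libraries and 2 input DNA libraries, each numbered as replicates 1 and 2, of which only the ChIP libraries have a list used here. The free-text descriptions conflict with the titles: ChIP replicate 2 is described as input DNA, and input replicate 1 carries the description of ChIP DNA. Titles, which match the source names, were followed, and whether libraries were exchanged was not tested. If ChIP replicate 2 were input DNA, every replicate 2 value below would describe input and not KDM4A, and the combined list could be affected too. Larvae hold many tissues, so a domain present in fewer cells and a domain less occupied in every cell cannot be told apart. No label says that the replicates came from separate collections of larvae, and the spread between them may be technical only.

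The replicate lists differed in length, with 11489 regions in replicate 1 and 5780 in replicate 2 over the whole genome. On the 4 arms they held 8185 and 4420 regions, and covered 21.7% to 24.6% and 11.7% to 12.9% of an arm. The lists give no read totals, so the depth of each library is unknown and its part in this difference was not tested. Positions are 1-based on FlyBase release 5, per the file headers. Gene positions and sequence of that release were not used here, so domains are named by position alone. The score given with a region is the authors' measure of enrichment on an unnamed scale, and it is used only to describe and order regions within a list.

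Most wide domains were only moderately wider than the limit. Their median width was 7491 bp, the upper quartile 9375 bp and the widest 45517 bp, against a median of 2073 bp for the 7342 narrower regions. Of the 485, 281 were narrower than 8 kb, 113 measured 8 to under 10 kb and 91 were 10 kb or more. The limit falls inside a continuous distribution. Just inside it lay X 6242876 to 6248876 (6001 bp, filled to 89.95% by replicate 1 and 89.77% by replicate 2), 3R 21870282 to 21876300 (6019 bp, 80.03% and 66.99%) and 3R 19752324 to 19758344 (6021 bp, 98.1% and 97.8%). Just outside lay 3L 5741870 to 5747860 (5991 bp, 100% and 86.4%), 2L 539592 to 545576 (5985 bp, 98.3% and 99.3%) and 3L 707234 to 713216 (5983 bp, 99.1% and 64.7%).

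All 4 arms carried wide domains at similar density. Arm 2L had 127, or 5.52 per Mb, 3R had 138 (4.95 per Mb), 3L had 115 (4.69 per Mb) and X had 105 (4.68 per Mb). Relative to the 4 arms pooled, these densities were 1.11 for 2L (exact 95% interval 0.950 to 1.29), 0.998 for 3R (0.859 to 1.15), 0.946 for 3L (0.797 to 1.11) and 0.945 for X (0.789 to 1.12). Each interval includes 1, and it covers counting error only, with domains treated as independent although neighbours are not. The share of an arm's combined regions that were wide ran from 5.56% on 3L to 7.18% on 2L, around the background of 6.2%.

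**Figure D1:**
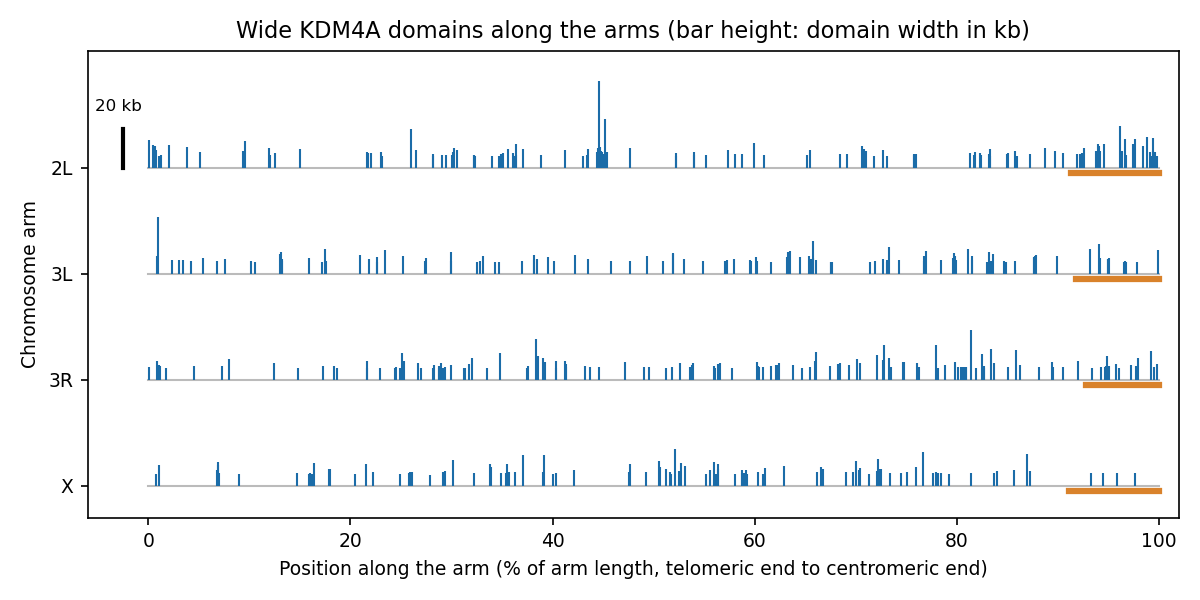
Position of each of the 485 wide domains along its arm, as a percentage of arm length from the telomeric to the centromeric end; bar height is domain width in kb, with a 20 kb scale bar, and orange lines mark the 2 Mb nearest the centromere. Domains lie along all 4 arms, the tallest bar is the 45.5 kb domain of 2L, and the orange window of 2L holds 25 domains against 4 on X.

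Density near the centromere, relative to the rest of the arm, differed between arms and was highest on 2L. The intervals here cover counting error only and treat domains as independent although neighbours are not, so none serves as a test. In the 2 Mb nearest the centromere, 2L had 25 wide domains, or 12.5 per Mb, against 4.85 per Mb in the rest of that arm, a ratio of 2.57 (exact 95% interval 1.59 to 4.02). The ratio was 1.46 on 3R (14 domains, 0.777 to 2.55), 1.19 on 3L (11 domains, 0.577 to 2.22) and 0.404 on X (4 domains, 0.108 to 1.07), and these intervals include 1. Pooled over the 4 arms it was 1.41 (54 domains, 1.04 to 1.87), and without 2L it was 1.01. The pooled interval excludes 1 at this window only: the ratio was 1.49 (0.988 to 2.17) over 1 Mb and 1.13 (0.856 to 1.46) over 3 Mb. On 2L alone the ratio was 3.17 (1.75 to 5.38) over 1 Mb and 1.97 (1.26 to 3.01) over 3 Mb, and on X it was 0.392 over 3 Mb (6 domains, 0.141 to 0.885), an interval below 1. All combined regions, wide or not, were 1.29 times as dense in the 2 Mb window of 2L as in the rest of 2L. For all combined regions this ratio was 1.42 on 3R, 1.14 on 3L, 0.586 on X and 1.10 pooled. Over 3 Mb on X it was 0.698, so combined regions of any width were also sparser there. In the 2 Mb nearest the telomeres the pooled ratio was 0.741 (30 domains, 0.494 to 1.07). It was 1.01 over 1 Mb (0.611 to 1.58) and 0.661 over 3 Mb (41 domains, 0.468 to 0.911), where the interval lies below 1. For all combined regions the pooled telomeric ratio was 1.06 over 1 Mb, 0.968 over 2 Mb and 0.971 over 3 Mb.

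Many wide domains had another close by. Of the 485, 284 lay within 50 kb of another wide domain, edge to edge (58.6%). Being near is mutual, so these domains are not independent and no interval is given. The background over all combined regions of the arms was 49.9%, and among the narrower regions 3618 of 7342 (49.3%) had a wide domain that close. The median distance to the nearest wide domain was 32.4 kb for a wide domain and 51.4 kb for a narrower region. Between neighbouring wide domains the median gap was 98.6 kb. For 64 domains the nearest was within 2 kb, for 146 within 10 kb, and for 66 over 200 kb away. By arm, the share with a neighbour within 50 kb was 67.7% on 2L, 59.0% on X, 58.3% on 3L and 50.0% on 3R.

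The borders between close domains can be short. Of the 485, 192 (39.6%) had another combined region within 500 bp on at least 1 side, and for 27 that neighbour or another within 500 bp was itself a wide domain. Among narrower regions 27.9% had a region that close. Joining combined regions across gaps of up to 500 bp would raise the number of wide domains from 485 to 766.

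When wide domains separated by at most 50 kb were linked into chains, 299 chains resulted. Of these, 201 were lone domains, 55 were pairs and 43 held 3 or more. The latter held 174 domains (35.9%) in 3.64 Mb, or 3.72% of the length of the arms. Linking close domains and measuring from the first to the last member puts many domains into little length by construction. These 2 shares are therefore a description and not a measure of clustering. Across 96 windows of 1 Mb the number of wide domains ran from 0 to 16 with a median of 5. Its correlation with the number of all combined regions per window was r = 0.55 and rho = 0.59, over windows that share the same list and so are not independent. The windows with most domains were 2L 22000001 to 23000000 with 16 and 2L 10000001 to 11000000 with 14.

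The chain with most members lay in the middle of 2L, at 10215816 to 10443082, and held 12 wide domains. They filled 155 kb of its 227 kb (68.1%), and combined regions of any width filled 85.7%. Replicate 1 covered 83.9% of the chain and replicate 2 covered 60.8%, whereas the whole of 2L was covered to 23.4% and 11.7%. In the 200 kb before the chain the coverage was 9.91% and 4.55%, and in the 200 kb after it 23.5% and 10.1%. Both lists were above their arm within the chain and near or below it on either side. The chain was picked for its many wide combined regions, and the combined list shares libraries with both lists. A contrast of this kind is therefore built in and is a description only. The next full 1 Mb window of 2L, 11000001 to 12000000, was the only one of 96 with 0 wide domains. It still had 61 combined regions, the widest of 5137 bp, and coverage there came to 16.3% for replicate 1 and 8.82% for replicate 2.

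**Figure D2:**
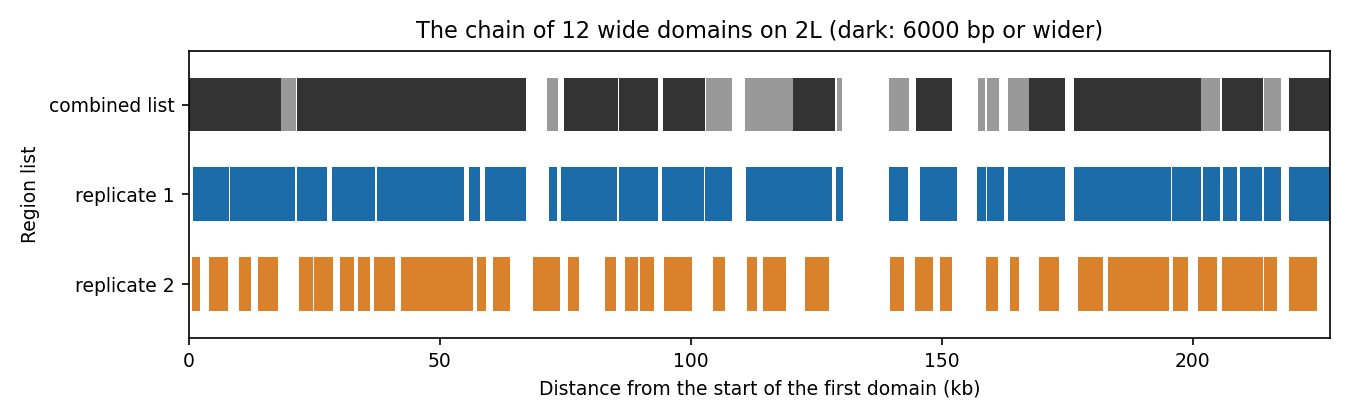
Regions of the combined list (dark, 6000 bp or wider; light, narrower), of replicate 1 and of replicate 2 across the 227 kb chain on 2L, against distance in kb from the start of its first domain. Replicate 1 covers most of the chain in long blocks, and replicate 2 covers less of it in mostly shorter separate blocks, 60.8% of the length against 83.9%.

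The 12 members of this chain were filled to between 88.4% and 100% by replicate 1 and between 39.9% and 100% by replicate 2. Their scores ran from 0.881 to 1.38, and the gaps between them from 57 to 17659 bp. The first pair, 10215816 to 10223822 and 10223880 to 10234084, was 57 bp apart. The member least filled by replicate 2, 10290582 to 10301228, was filled to 39.9% by 2 of its regions, with 5282 bp between them, and to 99.6% by 1 region of replicate 1. The reverse order held at 10421658 to 10429782, which replicate 2 filled to 100% with 1 region and replicate 1 to 89.0% with 2.

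The widest of all 485 domains, 2L 10237412 to 10282928, is the third member of that chain. Replicate 1 met it with 5 regions of 5.82, 8.67, 17.3, 2.21 and 8.19 kb, and the widest gap between them was 1040 bp. Replicate 2 met it with 8 regions, of which 1 measured 14.4 kb and the others 1.76 to 4.15 kb, and the widest gap was 1568 bp. The longest region of each list lay over the same stretch, 10253376 to 10270649 in replicate 1 and 10258074 to 10272436 in replicate 2. Bases inside regions of both lists made up 70.2% of the domain, and 0.0417% lay in neither. No single region of either list spanned the domain.

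The chain with the next most members lay at the centromeric end of 2L, at 22815988 to 22963140, and the replicates differed widely there. Its 7 domains were filled to between 92.9% and 100% by replicate 1. Replicate 2 had no region in 3 of them, filled 12.9% of the widest (22881852 to 22897178, 15327 bp), and reached its highest share, 57.0%, in the last one. Over the chain's length, coverage was 64.6% in replicate 1 and 7.66% in replicate 2. The surrounding window from 22000001 to 23000000, with 16 wide domains, gave 96.7% and 31.3% of the domains' bases.

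On X, 6 domains at 16167360 to 16257500 formed a chain in which they took up 52.6 of 90.1 kb. Replicate 1 filled them to between 82.5% and 100% and replicate 2 to between 54.3% and 70.4%, so the members resembled each other in both lists. In its widest member, 16178370 to 16192442, each list had 3 regions, with a widest gap of 678 bp in replicate 1 and 5431 bp in replicate 2. Another chain of 6, on 3R at 19710910 to 19885700, was sparser: its domains took up 40.9 of 175 kb (23.4%), and were filled to between 79.3% and 99.7% by replicate 1 and between 50.1% and 97.8% by replicate 2.

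Replicate 1 filled the wide domains almost wholly and replicate 2 in larger part. Pooled over the 485 domains, regions of replicate 1 held 92.0% of the bases and regions of replicate 2 held 64.9%, a mean of 78.4% ± 19.2 (SD, n = 2). Regions of both lists held 60.1% and neither list 3.28%. The median domain was filled to 96.3% by replicate 1 (quartiles 89.0 and 99.1) and to 67.9% by replicate 2 (quartiles 51.0 and 84.8). Replicate 1 filled more of 409 domains and replicate 2 more of 76. Over all 7827 combined regions of the arms, replicate 1 filled more of 5376 and replicate 2 more of 1540, and 911 were equal. With only as many of its best-scoring regions as replicate 2 has, replicate 1 filled 77.9%.

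All 485 domains were touched by replicate 1 and 467 by replicate 2 (96.3%), with backgrounds of 84.6% and 52.3% over all combined regions of the arms. At least 50% filled by replicate 1 were 478 (98.6%, background 83.1%), by replicate 2 370 (76.3%, background 47.1%) and by both 363 (74.8%, exact 95% interval 70.7 to 78.6, background 43.3%). Filled to 90% or more were 348 in replicate 1 (71.8%, background 65.1%) and 79 in replicate 2 (16.3%, background 22.2%). Combined and replicate lists come from one set of libraries, and a wide region has more room to be touched, so these counts support nothing about the domains. Replicate 2 decides the count for both lists: at the 50% mark replicate 1 alone gave 98.6% and replicate 2 alone 76.3%.

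**Figure D3:**
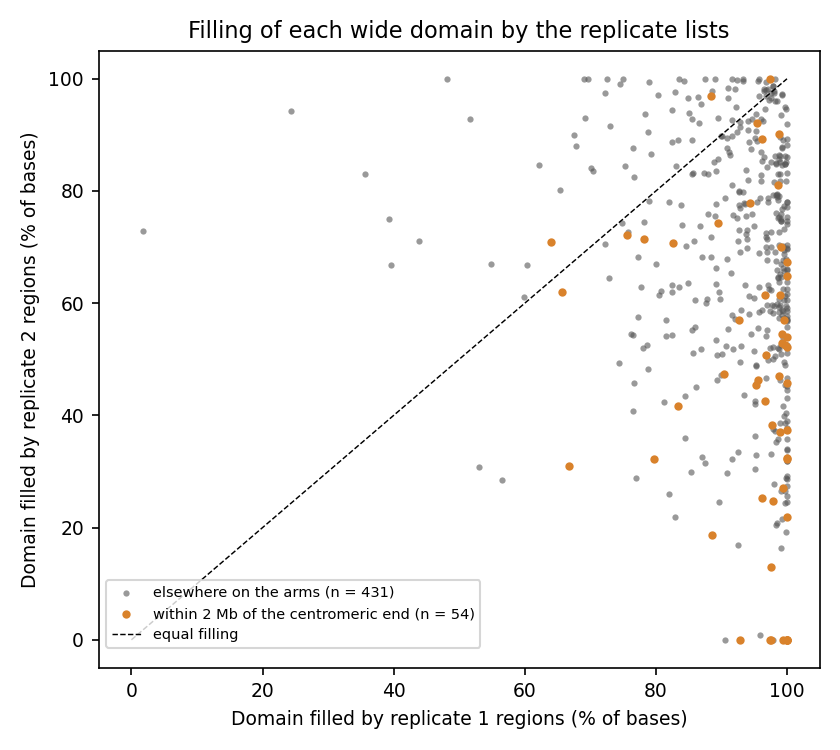
Share of each wide domain's bases inside regions of replicate 1 (x axis, %) and of replicate 2 (y axis, %), 1 point per domain, with the dashed line at equal filling; orange points are the 54 domains within 2 Mb of a centromeric end. Most points lie below the line, at 90% or more for replicate 1, and spread over the whole range for replicate 2; 18 lie at 0 for replicate 2.

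Pooled filling changed little with width above 2 kb. Replicate 1 held 90.6% of the bases of regions from 2 to under 4 kb, 90.1% from 4 to under 6 kb, 91.9% from 6 to under 8 kb, 90.1% from 8 to under 10 kb and 93.5% at 10 kb or more. Replicate 2 held 63.2%, 64.0%, 64.5%, 66.0% and 64.5% in the same classes. Regions under 2 kb stood apart, with 63.7% and 13.7%. From 2 kb upward the classes thus spanned 90.1% to 93.5% in replicate 1 and 63.2% to 66.0% in replicate 2. The pooled share hides opposite changes in replicate 2. Its median region was filled to 80.1% at 2 to under 4 kb and to 66.8% to 68.8% in the wider classes. The share of regions touched by replicate 2 rose over these classes from 76.3% to 98.9%.

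**Figure D4:**
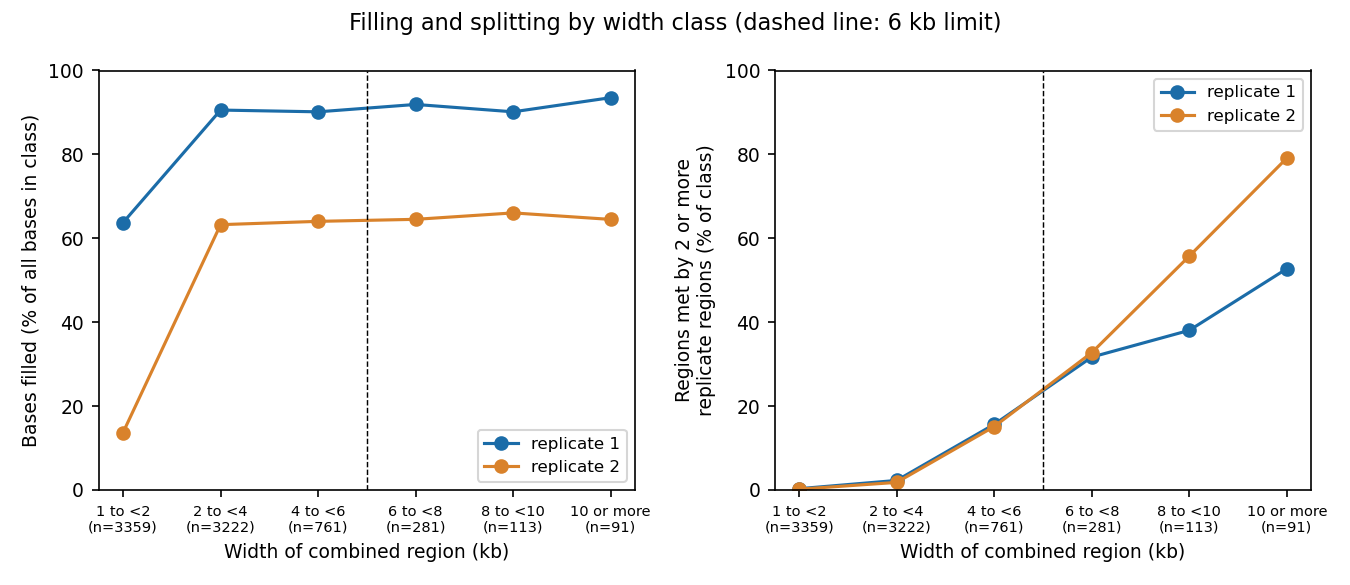
Left, bases filled by each replicate (% of all bases in the class); right, combined regions met by 2 or more replicate regions (% of the class); the x axis gives width classes of all 7827 combined regions of the 4 arms, with the number in each, and the dashed line marks 6 kb. Pooled filling is flat from 2 kb upward, 90.1% to 93.5% in replicate 1 and 63.2% to 66.0% in replicate 2. Splitting climbs with width to 52.7% and 79.1%.

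The number of regions meeting a domain rose with its width, which the choice of domains used and which by itself gives more room for several regions of 1301 bp or more. The counts of split domains are therefore a description, and nothing is read from their distance to the backgrounds. Among the wide domains, 180 (37.1%, exact 95% interval 32.8 to 41.6) were met by 2 or more regions of replicate 1 and 227 (46.8%, 42.3 to 51.4) by 2 or more of replicate 2, with backgrounds of 4.88% and 5.19%. In the class under 8 kb the shares were 31.7% and 32.7%, and at 10 kb or more 52.7% and 79.1%. Replicate 1 met 305 domains with 1 region, 140 with 2, 38 with 3, 1 with 4 and 1 with 5. In replicate 2 the numbers were 240 with 1, 173 with 2, 41 with 3, 10 with 4, and 1 each with 5, 6 and 8. Beside the widest domain, 3L 16142818 to 16160100 (17.3 kb) was the most split in replicate 1, with 4 regions there and 3 in replicate 2.

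Gaps between the pieces were short in replicate 1 and longer in replicate 2. The 223 gaps of replicate 1 had a median of 332 bp and 8 exceeded 2 kb, while the 301 gaps of replicate 2 had a median of 824 bp and 48 exceeded 2 kb. With regions joined across gaps of up to 500 bp, the split share fell to 16.5% in replicate 1 and 32.2% in replicate 2. By list, 169 domains (34.8%) were met by 1 region of each and 121 (24.9%) were split by replicate 2 alone. Replicate 1 split 71 (14.6%) that met 1 region of replicate 2, and both split 106 (21.9%). The remaining 18 had no replicate 2 region. These classes were not counted over narrower regions and are a description. Over all combined regions of the arms, replicate 1 split 4.88% and replicate 2 split 5.19%. Inside 105 domains (21.6%) there was an inner stretch in neither list, with a median length of 303 bp over these domains' widest such stretches and 1000 bp or more in 12. Such stretches were not counted over narrower regions, and a wide region has more room for them. Pooled bases in neither list, at edges or inside, made up 3.28% of wide domains and 11.2% of narrower regions.

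Each list was densest within the domain and dropped close to its edges. The edges were set by a combined list that shares these libraries, so this shape is a description only. Replicate 1 covered 93.5% of the middle 10% of the domains' width and 74.9% of the outermost 5% on either side. Replicate 2 covered 71.5% and 39.1%. Outside the domains, over flanks of 50% of a domain's width, coverage averaged 42.3% in replicate 1 and 24.0% in replicate 2. These values were above the 21.7% to 24.6% and 11.7% to 12.9% of whole arms. The combined list did the same, with 41.7% over the flanks against 21.3% to 22.7% of whole arms. The outer border of the replicate 1 regions lay a median of 30 bp inside the domain edge and within 500 bp of it at 752 of 970 edges (77.5%). For replicate 2 the median was 418.5 bp, and 417 of 934 edges (44.6%) lay within 500 bp.

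**Figure D5:**
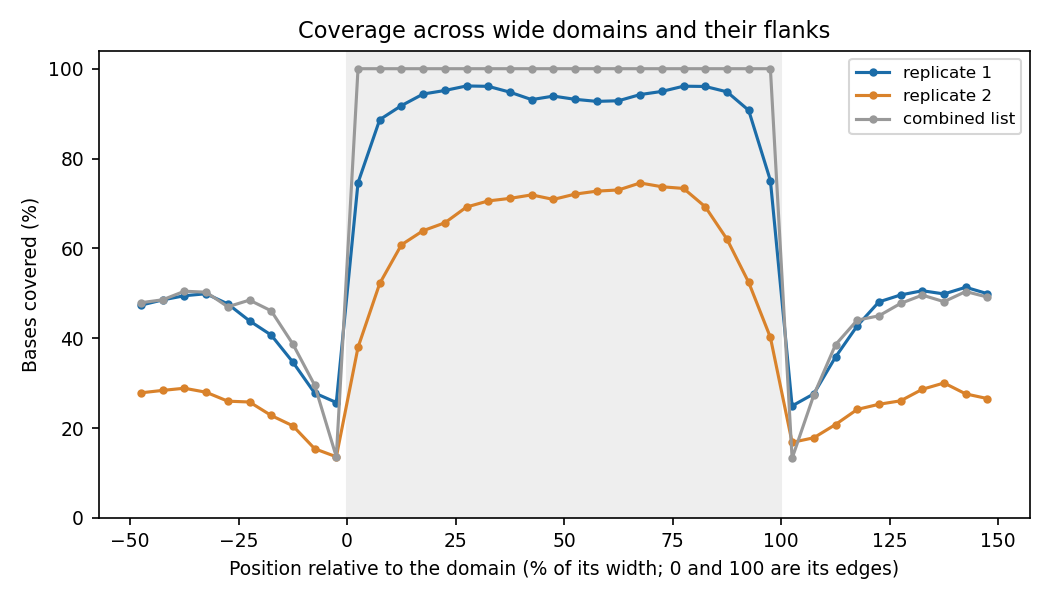
Bases covered by regions of replicate 1, replicate 2 and the combined list (%, y axis) in 5% steps across the wide domains (grey, 0 to 100% of their width) and over flanks of 50% of the width on each side. Replicate 1 forms a plateau up to 96.2% with steep sides, replicate 2 a lower and rounder one up to 74.6%, and both fall to their lowest values just outside the edges.

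The replicates also had wide regions of their own on these arms. In replicate 1, 434 of 8185 regions spanned 6000 bp or more, and 316 of them (72.8%) met a wide domain. In replicate 2 the numbers were 145 of 4420 and 111 (76.6%). The remaining 118 and 34 each met a narrower combined region, with median widths of 4326 and 4471 bp. Seen from the domains, 69 were met by such a region of both lists, 240 of replicate 1 alone, 41 of replicate 2 alone and 135 of neither. Those 135 domains were thus wide in neither replicate list.

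Among the 10 widest domains, the filled share lay between 43.8% and 99.0% for replicate 1 and between 46.2% and 81.8% for replicate 2. The domain at 3L 222408 to 252292 (29.9 kb) was met by 3 regions of replicate 1, the longest of 17.2 kb, and by 6 of replicate 2, the longest of 9.79 kb. At 3R 5163480 to 5189354 (25.9 kb), a single replicate 1 region of 23.4 kb reached across most of the domain, and its nearest wide neighbour was 107 kb away. The widest domain of X, 11685180 to 11704278 (19.1 kb), was filled to 97.0% and 55.1%, with a gap of 6587 bp between the 2 regions of replicate 2. Of the 10, 3R 6143232 to 6161248 (18.0 kb, score 0.496) was the exception in order, filled to 43.8% by replicate 1 and 71.1% by replicate 2.

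That exception was 1 of 7 domains filled to under 50% by replicate 1, all 7 of which replicate 2 filled to over 50%. Their scores, 0.334 to 0.811, lay below the median of 0.907 for the wide domains. The lowest was 3L 15548912 to 15554966, where a replicate 1 region overlapped only 1.77% of the domain and replicate 2 filled 72.8%. Some 10 kb further, 3L 15564768 to 15570798 was filled to 35.7% and 83.1%. At 3R 11093324 to 11102756 the shares were 48.1% and 100%, and at X 1514442 to 1522800 they were 24.4% and 94.3%. In each of the 7, replicate 2 filled the larger share.

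At the other extreme, 18 of 485 domains (3.71%) had no replicate 2 region. Over all combined regions of the arms, replicate 2 touched 52.3%. Replicate 1 filled these to between 90.6% and 100%, with a median of 99.9%. They were 6079 to 12459 bp wide, and their median score of 0.522 was below that of the wide domains as a whole. Of the 18, 9 lay on 2L, 4 on 3R, 3 on 3L and 2 on X, and 8 lay within 2 Mb of a centromeric end. Of all 485, 127 lay on 2L, 138 on 3R, 115 on 3L and 105 on X, and 54 within 2 Mb of a centromeric end. On 2L they started at 166840, 6924562, 12419236, 19171268, 22155266, 22252492, 22830980, 22897892 and 22913850.

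Domains near the centromeres were filled unequally in the 2 lists, and the arms differed. Replicate 2 filled 37.4% of the proximal domains of 2L against 69.4% of the others on that arm, and 40.7% against 67.3% on 3L. On 3R the shares were 66.7% and 68.9%, and on X, with 4 proximal domains, 68.3% and 63.5%. Replicate 1 filled 91.0% to 96.8% of proximal domains on the 4 arms and 89.1% to 94.5% of the others. A lower share in replicate 2 near the centromere was thus present on 2L and 3L and within 5 percentage points of the rest of the arm on 3R and X.

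Wide domains scored higher than narrower regions in the combined list, at a median of 0.907 against 0.465, as a description within a list that also set the widths. Across the 485, the ranks of score and width were hardly related (rho = 0.07). In rank, rho was 0.43 between score and the share filled by replicate 2, and 0.21 between score and the share filled by replicate 1. These values share the same libraries and have no test. Among the 122 lowest-scoring domains replicate 2 filled 47.3% of the bases and 49.2% of domains were at least 50% filled by both lists, and among the 121 highest-scoring 77.1% and 93.4%. The 122 lowest also held 15 of the 18 domains with no replicate 2 region.

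The highest score among the wide domains, 3.17, belonged to 2L 12001226 to 12008902, filled to 97.5% by replicate 1 and 100% by replicate 2. The domain after it, 12008988 to 12015142 (score 2.93), began 85 bp further on and was picked out after its values were seen. Replicate 2 spanned both with 1 region of 13803 bp, while replicate 1 had separate regions of 7484 and 5992 bp. In all, 13 domains were filled to 100% by 1 region of replicate 2. Replicate 1 filled these to between 48.1% and 98.1%, 5 of them to 90% or more and 5 to under 75%. Among them were 2L 2140228 to 2148712 (72.6% in replicate 1), 2L 6486104 to 6492156 (69.1%), 3L 16578990 to 16585194 (93.2%) and X 7824370 to 7831076 (98.1%). The 13 were not set against a count over all combined regions of the arms. At 90% or more filled by replicate 2, wide domains stood at 16.3%, below the background of 22.2%.

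Combined regions of the same minimum width off the arms showed a wider gap between the lists than the wide domains of the arms pooled. On chromosome 4 there were 34, filled to 98.9% by replicate 1 and 41.2% by replicate 2, and on the heterochromatin scaffolds 33, filled to 94.9% and 33.5%. The wide domains of the arms stood at 92.0% and 64.9%. Within 2 Mb of the centromere, however, those of 2L stood at 96.8% and 37.4% and those of 3L at 93.1% and 40.7%. On 3R and X replicate 2 filled 66.7% and 68.3% of the proximal domains. A gap this wide was thus not particular to regions off the arms. With 1 value per list and part of the genome, the difference was not tested.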

How the data were processed

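The authors aligned the reads using Bowtie 0.12.7 (submitters' processing notes), and the lists use FlyBase release 5, per the file headers. The deposited lists give start, end and an enrichment score for each region. No source used here names the caller or threshold, or says how input was treated and the combined list built. The combined list has 1 row of another type (depletion), which was left out. A combined region on 2L, 3L, 3R or X of at least 6000 bp was a member. Filled share is the bases inside the union of a replicate's regions, and a region met a domain when it shared at least 1 bp. Arm lengths came from the file headers, and the centromere lies at the high end of 2L, 3L and X and the low end of 3R. With 2 replicates of 1 group no test was made. Exact intervals are Clopper-Pearson at 95% and treat domains as independent, although neighbours are not. Members, lists and measures were chosen with earlier results of these data known. The named domains are the 10 widest, the members of the 3 chains with most members (ties by bases in wide domains), those most and least filled by replicate 2, the most split, the widest of each arm and those beside the limit; domains filled to under 50% by replicate 1, the highest-scoring pair, 1 further chain of 6 and 2 further domains wholly filled by replicate 2 were added after their values were seen. Chain members outside the text are covered by ranges. The code was tested on simulated lists. Python 3.11.15, NumPy 2.4.6, pandas 2.3.3 and SciPy 1.17.1 were used.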

Additional observations from a re-analysis of the deposited data

How the results depend on the processing

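Of 51 alternative values, 32 stayed within the spread between the replicates, the exact interval or 1.5 times the main count, and 19 moved. The spread of the filled share is 1 SD of 2 unequal replicates, 19.2 percentage points, so that all filled shares stayed within it says little about their stability. The number of domains was 764, 204 and 91 at limits of 5000, 8000 and 10000 bp, and 766 with combined regions joined across 500 bp. The split share in replicate 1 was 16.5% with replicate regions joined across 500 bp, 44.6% at 8000 bp and 52.7% at 10000 bp. In replicate 2 it was 42.3% when a region had to lie at least 50% inside, 32.2% joined, and 66.2% and 79.1% at the higher limits. The share filled in both lists was 25.6% at the 80% mark and 96.3% at 1 bp, and leaving out either replicate gave 76.3% to 98.6%. A wide neighbour was found for 45.2% within 25 kb and 73.4% within 100 kb, and for 43.1% and 23.1% at limits of 8000 and 10000 bp, where fewer domains remain. The proximal ratio was 1.01 without 2L. Leaving out replicates for the share filled in both, leaving out arms, and leaving out proximal windows were chosen after seeing the data. Leaving out either replicate gave a filled share of 64.9% to 92.0%. No paired analysis was possible because only the ChIP libraries have a list used here and so nothing with the same replicate number stands against them. The planned counts of genes in domains were not made, since the gene table at hand is not of release 5. With read totals unknown, the lists set no bound on what depth does to the difference between replicates.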

Other observations

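The longest stretch between neighbouring wide domains was 1506 kb on 2L (3458489 to 4964515), 1348 kb on X (19563713 to 20911519), 1247 kb on 3R (24432887 to 25679499) and 914 kb on 3L (16607429 to 17521289). These stretches were not empty: they held 101, 75, 96 and 85 narrower combined regions, and the widest of those measured 5507 to 5945 bp, just under the limit of 6000 bp.

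The lists differ in their grid. All 7827 combined regions of the 4 arms start at an even position and have an odd width, whereas 50.4% of replicate 1 regions and 50.0% of replicate 2 regions start at an even position. The narrowest regions there are 1001 bp in the combined list, 1301 bp in replicate 1 and 1305 bp in replicate 2.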
